A study of Mus musculus with 10 samples.

Results

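The Z-disc is the plate at each end of the sarcomere, the contractile unit of striated muscle. The actin filaments of neighbouring sarcomeres meet there and are tied together by alpha-actinin, the ends of the giant spring protein titin are anchored there, and filamin and desmin filaments join it to the cell membrane and to neighbouring myofibrils. Several Z-disc proteins also take part in the sensing of mechanical load, and inherited defects in many of them cause cardiomyopathy. The 10 genes described here were picked by symbol from the 48397 gene symbols counted in each library, all 10 were found, and all 10 passed the filter on low counts that left 15175 genes for testing. They encode the alpha-actinins (Actn1, Actn2), the titin cap (Tcap), the adaptors Ldb3 and Csrp3, the calsarcins (Myoz1, Myoz2), filamin C (Flnc), desmin (Des) and the actin-binding protein of Synpo2l.

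RNA was sequenced from whole tissue in 5 libraries of mice with a constricted thoracic aorta (TAC, which raises the pressure load on the left heart) and 5 libraries of sham-operated mice. All carried the wild-type genotype, were operated at 2 months of age and were sampled 2 weeks later. The design text adds that they were C57BL/6J males and names the left appendage, where the sample labels name the left atrium, and the extraction and library kits also differ between these sources. Nothing in the labels ties a library to a separate animal, so the p-values measure the spread between libraries, which may be partly technical. Each library had 17117306 to 43956384 counts over genes, and the 2 shallowest were sham replicates 1 and 2. Along the first principal component (70.2% of the variance) TAC and sham libraries fell apart, and 56.8% of all tested genes were called. Cardiomyocyte markers were abundant in every library. Levels are given as CPM, the count relative to the library's total, after TMM scaling, which corrects library sizes for differences in RNA composition, and a gene was called at an adjusted p under 0.05 in edgeR's quasi-likelihood test over all tested genes.

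Of the 10 genes, 7 were lower and 2 higher in TAC, against a background of 27.9% of all tested genes called lower and 28.9% called higher. The largest falls were those of Tcap and Flnc, each to 19.9% of the sham level by the fitted fold change. Ldb3, Csrp3, Synpo2l, Myoz2 and Actn2 fell less, to between 46.3% and 66.4% of the sham level. Actn1 rose 4.11-fold and Des 1.90-fold. Myoz1 had few counts in both groups and was not called. The log2 fold change was at least 1 in size for 5 called genes (Tcap, Flnc, Ldb3, Csrp3 and Actn1), against 19.8% of all tested genes. The CPM of TAC and sham libraries did not overlap for 7 of the 10 genes, against 41.7% of all tested genes. Of these 7, 1 was higher and 6 were lower in TAC, where the shares over all tested genes were 21.5% and 20.2%. The median log2 fold change was -0.69 over the 10 genes and 0.01 over all tested genes.

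**Figure D1:**
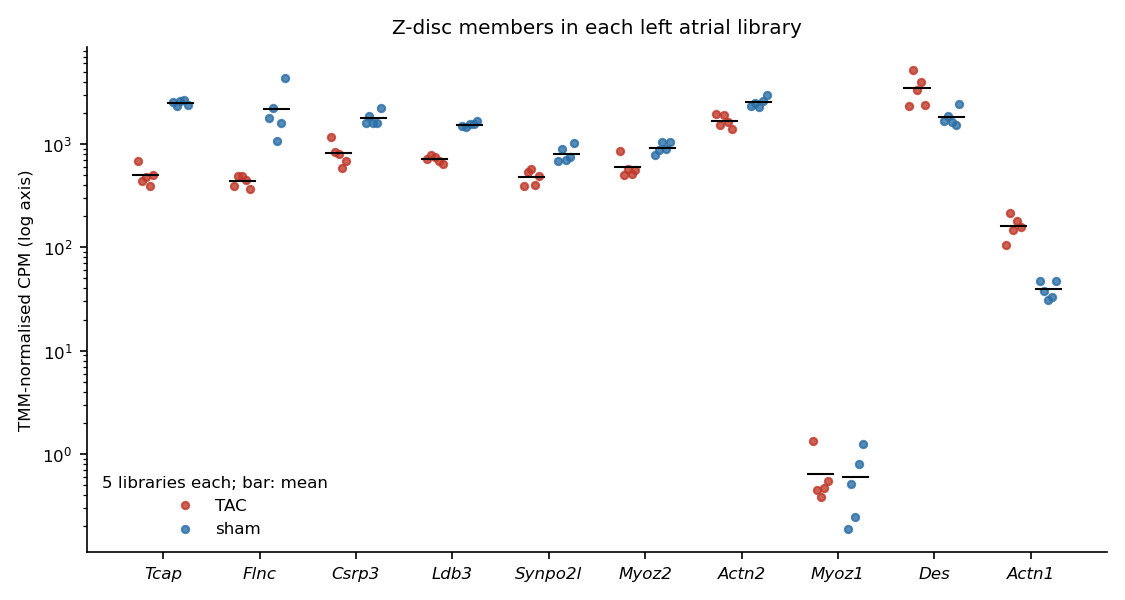
TMM-normalised CPM (log axis) of the 10 Z-disc genes in each library, with TAC left of sham, 1 point per library and a bar at the mean of 5. Tcap, Flnc, Csrp3, Ldb3, Synpo2l and Actn2 lie lower in every TAC library than in any sham library, Actn1 lies higher in every TAC library, and Myoz2, Myoz1 and Des overlap.

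The promoters of 8 of the 10 genes were available from RefSeq (GRCm38.p6), as windows of 300 bases, and Tcap and Myoz1 had no entry. They are described here as sequence features, and no link between a motif and the changes was tested. Both strands of each window were searched for 5 motifs. The MCAT motif was read as CATTCC in the scan of these windows. For the E-box, a site of helix-loop-helix factors of muscle, the letters CAGCTG were used. The GATA motif of the cardiac zinc finger factors was taken as AGATAA in this search. The longer CArG and MEF2 motifs allow several letters at some positions and are given by name. Some genes have more than 1 start and window. Windows are shown for 3 genes that fell (Ldb3, Myoz2, Flnc) and for 1 that rose (Des). Each window shown holds a match, with the matched bases in capitals. Positions count from the transcription start, with -1 for the base before it, and give the first base of the match.
Ldb3, chr14:34588632-34588931, minus strand: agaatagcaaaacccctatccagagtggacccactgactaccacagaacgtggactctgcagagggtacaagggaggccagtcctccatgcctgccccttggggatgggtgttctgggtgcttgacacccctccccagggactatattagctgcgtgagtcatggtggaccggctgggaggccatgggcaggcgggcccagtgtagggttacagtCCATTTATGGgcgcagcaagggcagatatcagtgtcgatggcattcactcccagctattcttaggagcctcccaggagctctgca
Myoz2, chr3:123034938-123035237, minus strand: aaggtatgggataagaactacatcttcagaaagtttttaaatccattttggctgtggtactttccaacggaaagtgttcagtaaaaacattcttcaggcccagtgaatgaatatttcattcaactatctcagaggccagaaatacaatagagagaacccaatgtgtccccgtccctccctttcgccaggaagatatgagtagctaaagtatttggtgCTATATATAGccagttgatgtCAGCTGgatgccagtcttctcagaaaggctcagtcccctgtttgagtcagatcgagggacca
Flnc, chr6:29433006-29433305, plus strand: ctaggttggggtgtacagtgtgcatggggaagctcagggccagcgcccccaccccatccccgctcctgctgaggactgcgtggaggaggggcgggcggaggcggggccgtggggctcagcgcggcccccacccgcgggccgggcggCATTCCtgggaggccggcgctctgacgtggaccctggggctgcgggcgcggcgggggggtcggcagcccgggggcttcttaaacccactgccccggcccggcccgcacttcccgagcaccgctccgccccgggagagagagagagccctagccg
Des, chr1:75360042-75360341, plus strand: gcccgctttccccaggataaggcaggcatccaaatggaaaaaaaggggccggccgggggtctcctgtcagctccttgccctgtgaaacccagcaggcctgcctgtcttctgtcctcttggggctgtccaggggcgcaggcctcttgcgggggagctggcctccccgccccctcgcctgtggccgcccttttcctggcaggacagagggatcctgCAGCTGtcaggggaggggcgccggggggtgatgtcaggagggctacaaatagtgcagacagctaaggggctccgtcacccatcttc
The Ldb3 window held a CArG match at -35, the Myoz2 window a MEF2 match at -33 and an E-box at -12, the Flnc window an MCAT match at -104 and the Des window an E-box at -36. None of these matches overlapped another motif searched. Counted from the other start of each gene, the same Ldb3 match lies at -109 and the same Flnc match at -1. Over 32851 promoter windows of the same length, CArG was present in 1.63%, MEF2 in 3.19%, MCAT in 14.7%, the E-box in 16.3% and GATA in 11.2%. Among the 8 genes with a window, 1 held CArG, 2 held MEF2 (Myoz2 and Synpo2l), 1 held MCAT, 3 held the E-box and 0 held GATA. These counts are of genes with a match in any of their windows, whereas the shares above are of single windows. Ldb3, Csrp3, Flnc and Synpo2l had more than 1 window and so more room for a match, and the counts and shares are not directly comparable. A match describes the letters in the window and is not evidence of binding, and no search of the windows of Actn1, Actn2 and Csrp3 found any of the 5 motifs.

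Tcap (ENSMUSG00000007877.2, chr11:98383811-98384953, GRCm38) encodes telethonin, which caps the ends of titin at the Z-disc. It had 684, 438, 481, 393 and 496 CPM in TAC replicates 1 to 5, against 2561, 2326, 2604, 2664 and 2375 CPM in sham replicates 1 to 5. The sham libraries were nearly level, and the highest TAC library stood far below the lowest of them. The mean was 498 ± 111 CPM in TAC and 2506 ± 148 CPM in sham (SD, n = 5 each), a log2 fold change of -2.33 (SE 0.15, edgeR adjusted p = 8.1e-07). Among all tested genes, 1.34% had a lower log2 fold change.

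Flnc (ENSMUSG00000068699.12, chr6:29433256-29461883) encodes filamin C, the muscle actin cross-linker that joins the Z-disc to the membrane. It had 394, 488, 491, 448 and 369 CPM in TAC replicates 1 to 5, against 1774, 2214, 1064, 1587 and 4353 CPM in sham replicates 1 to 5. Here the TAC libraries were the uniform group, with a coefficient of variation of 12.5%, while the sham libraries varied 4.09-fold from lowest to highest. The mean was 438 ± 54.9 CPM in TAC and 2199 ± 1273 CPM in sham, with a log2 fold change of -2.33 (SE 0.33, edgeR adjusted p = 0.00012). Without sham replicate 5, the highest library, the log2 fold change was -1.92 (edgeR adjusted p = 2.8e-05). By TMM-scaled CPM, sham replicate 5 was the highest sham library for 8 of the 10 genes, all except Tcap and Myoz2. It also had the lowest TMM factor of all libraries (0.812), which raises its CPM, and the highest summed cardiomyocyte markers in sham (95660.0 CPM). Of 48 tested Z-disc genes and relatives outside the 10, it was the highest sham library for 17.

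Ldb3 and Csrp3 encode adaptors of the Z-disc. Ldb3 (ENSMUSG00000021798.14, chr14:34526603-34588682) encodes a PDZ-LIM protein, also called Cypher or ZASP, that binds alpha-actinin. It had 719, 778, 754, 687 and 642 CPM in TAC replicates 1 to 5, against 1496, 1442, 1544, 1549 and 1674 CPM in sham replicates 1 to 5. Both groups were tight, with coefficients of variation of 7.52% in TAC and 5.60% in sham, the smallest among the 10 genes in each group. Its log2 fold change was -1.11 (SE 0.09, edgeR adjusted p = 3.2e-06). Csrp3 (ENSMUSG00000030470.15, chr7:48830398-48848033) encodes the muscle LIM protein, a scaffold linked to load sensing. It had 1166, 841, 804, 586 and 691 CPM in TAC replicates 1 to 5, against 1586, 1856, 1580.0, 1589 and 2228 CPM in sham replicates 1 to 5. TAC replicate 1 was the closest to the sham range but remained below it. The log2 fold change of Csrp3 was -1.11 (SE 0.18, edgeR adjusted p = 0.00029).

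The calsarcins bind alpha-actinin and the phosphatase calcineurin, and Myoz2 is the form of heart and slow muscle while Myoz1 is the form of fast skeletal muscle. Myoz2 (ENSMUSG00000028116.13, chr3:123006206-123035015) had 857, 503, 576, 507 and 562 CPM in TAC replicates 1 to 5, against 776, 875, 1038, 888 and 1034 CPM in sham replicates 1 to 5. TAC replicate 1 lay inside the sham range, and the other 4 TAC libraries lay below it. Myoz2 had a log2 fold change of -0.62 (SE 0.16, edgeR adjusted p = 0.0051) and -0.76 without TAC replicate 1 (edgeR adjusted p = 8.7e-05). Myoz1 (ENSMUSG00000068697.7, chr14:20649107-20656540) had 58, 18, 13, 16 and 21 counts in TAC replicates 1 to 5, against 3, 8, 8, 31 and 33 counts in sham replicates 1 to 5. That corresponds to 0.639 ± 0.397 CPM in TAC and 0.595 ± 0.434 CPM in sham, where 3 counts are worth 0.0693 to 0.192 CPM depending on the library. The log2 fold change of Myoz1 was 0.07 (SE 0.51, edgeR adjusted p = 0.91), and its sign turned when TAC replicate 1, sham replicate 1 or sham replicate 3 was left out. Its spread between libraries was the widest of the 10 genes, with coefficients of variation of 62.0% in TAC and 72.9% in sham.

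Synpo2l (ENSMUSG00000039376.13, chr14:20658946-20668354), which encodes an actin-binding Z-disc protein of heart and skeletal muscle, lies next to Myoz1 on the same strand, 2405 bases away. It had 393, 540, 572, 398 and 485 CPM in TAC replicates 1 to 5, against 691, 889, 695, 741 and 1014 CPM in sham replicates 1 to 5. All TAC libraries lay below all sham libraries. Synpo2l had a log2 fold change of -0.76 (SE 0.15, edgeR adjusted p = 0.0010), so the neighbours Synpo2l and Myoz1 differed widely in level and only Synpo2l was called. The difference between their log2 fold changes was not tested.

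Actn2 (ENSMUSG00000052374.16, chr13:12269426-12340760) encodes the sarcomeric alpha-actinin, the main actin cross-linker of the Z-disc. It had 1927, 1525, 1915, 1633 and 1386 CPM in TAC replicates 1 to 5, against 2334, 2472, 2274, 2573 and 2973 CPM in sham replicates 1 to 5. The TAC libraries lay below the sham libraries without overlap. The fitted fold change of Actn2 was the smallest in size among the 7 genes that fell. Actn2 had a log2 fold change of -0.59 (SE 0.13, edgeR adjusted p = 0.0018). Actn1 (ENSMUSG00000015143.15, chr12:80167547-80260371) encodes the non-muscle alpha-actinin, found in stress fibres and adhesions of many cell types. It had 106, 215, 147, 178 and 156 CPM in TAC replicates 1 to 5, against 46.7, 37.7, 30.9, 33.2 and 46.8 CPM in sham replicates 1 to 5. The lowest TAC library stood well above the highest sham library. The log2 fold change of Actn1 was 2.04 (SE 0.19, edgeR adjusted p = 7.0e-06), and 4.49% of all tested genes had a higher one. Antisense transcripts overlap 8.15% of the exonic bases of Actn1, and the strand setting of the counting is not given in the sources used here.

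Des (ENSMUSG00000026208.9, chr1:75360329-75368579) encodes desmin, the muscle intermediate filament that links neighbouring Z-discs. It had 2342, 5193, 3349, 4015 and 2360.0 CPM in TAC replicates 1 to 5, against 1651, 1861, 1614, 1527 and 2435 CPM in sham replicates 1 to 5. TAC replicates 1 and 5 lay just below sham replicate 5, and the other TAC libraries lay above every sham library. The mean was 3452 ± 1202 CPM in TAC and 1818 ± 366 CPM in sham, with a log2 fold change of 0.93 (SE 0.23, edgeR adjusted p = 0.0046). The antisense gene Gm15179 overlaps 5.86% of the exonic bases of Des.

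Per kilobase of annotated exon, which allows levels of different genes to be set side by side, the order of the 10 genes differed between the groups. In TAC the highest was Des at 920 ± 320 CPM per kb, followed by Tcap at 526 ± 117, Actn2 at 442 ± 63.1 and Csrp3 at 306 ± 82.0 CPM per kb, and each of these overlapped its neighbour in the order. In sham the highest was Tcap at 2643 ± 156 CPM per kb, clear of Actn2 at 665 ± 72.7 and Csrp3 at 662 ± 106 CPM per kb, which overlapped each other, and Csrp3 also overlapped Des at 484 ± 97.6 CPM per kb. Lower in the order, TAC had Myoz2, Ldb3, Synpo2l and Flnc at 176, 117, 103 and 46.6 CPM per kb, and sham had Myoz2, Ldb3, Flnc and Synpo2l at 269, 252.4, 234 and 174 CPM per kb. Of these, Ldb3 and Synpo2l overlapped in TAC, and every adjacent pair overlapped in sham. Myoz1 was the lowest and Actn1 the next lowest in both groups, with Actn1 at 29.01 ± 7.26 CPM per kb in TAC and 7.06 ± 1.35 CPM per kb in sham. The 10 genes together took 0.848% to 1.20% of all gene counts in TAC and 1.08% to 1.47% in sham, so the ranges of their summed share overlapped.

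Ratios between 2 genes within a library do not depend on the scaling between libraries, and 3 of them were compared. The pairs were chosen with the fold changes of their genes known, so the p-values are no independent support. They rank the observed difference in mean log2 ratio among all regroupings. Once the groups separate fully, the p-value no longer reflects how far apart they lie. Actn1 had 5.51, 14.1, 7.70, 10.9 and 11.2 counts per 100 counts of Actn2 in TAC replicates 1 to 5, against 2.00, 1.52, 1.36, 1.29 and 1.58 in sham replicates 1 to 5. The mean log2 ratio was -3.41 ± 0.53 in TAC and -6.03 ± 0.25 in sham, a difference of 2.62 (SD, n = 5 each, p = 0.0079 in an exact two-sided permutation test, which can go no lower, and 0.012 adjusted over the 3 ratios). The balance between non-muscle and sarcomeric alpha-actinin transcripts thus moved 6.13-fold, with Actn2 the more abundant in every library. Des had 5.94, 10.6, 6.82, 8.96 and 6.39 counts per count of Flnc in TAC replicates 1 to 5, against 0.931, 0.840, 1.52, 0.962 and 0.559 in sham replicates 1 to 5. The mean log2 ratio was 2.92 ± 0.35 in TAC and -0.13 ± 0.51 in sham, a difference of 3.05 (exact two-sided permutation p = 0.0079, 0.012 adjusted over the 3 ratios). The third ratio, Myoz1 to Myoz2, overlapped between the groups, with means of -9.98 ± 0.43 in TAC and -10.84 ± 1.02 in sham (exact two-sided permutation p = 0.15, also 0.15 adjusted). Without sham replicate 5 its difference was 1.16 (exact two-sided permutation p = 0.032, also 0.032 adjusted), so that 1 library decided this call.

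**Figure D2:**
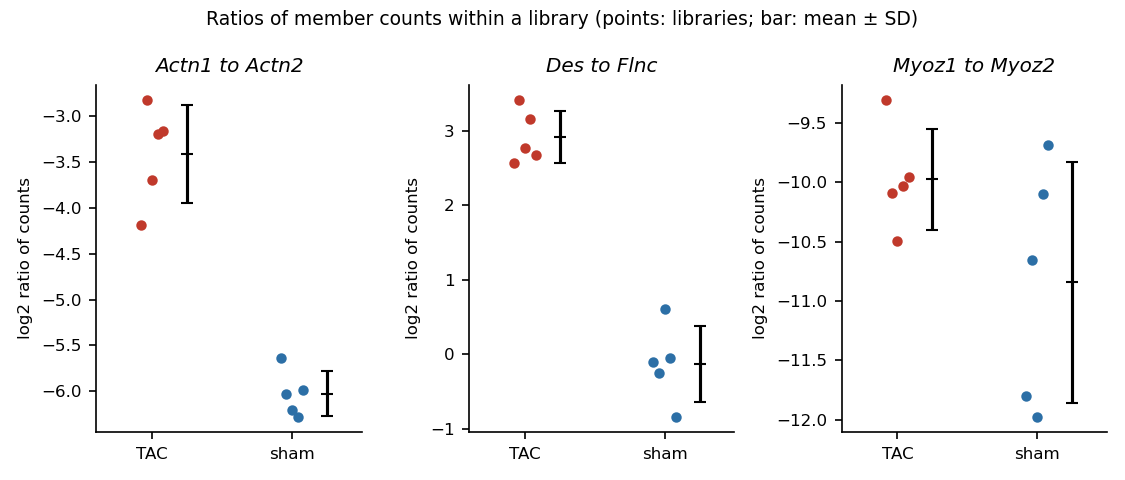
Log2 ratio of the raw counts of 2 Z-disc genes in each library (0.5 added to each count), with TAC left of sham, points for libraries and a bar for the mean ± SD of 5. Actn1 to Actn2 and Des to Flnc are higher in every TAC library than in any sham library, and Myoz1 to Myoz2 overlaps.

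The size of these changes depended on what the libraries were scaled to. When libraries were scaled by size alone, the median over all tested genes became 0.37 (log2), and 12.7% of them were called lower and 51.0% higher. Of the 10 genes 5 were then lower and 2 higher, as Actn2 (log2 fold change -0.23, edgeR adjusted p = 0.067) and Myoz2 (-0.26, edgeR adjusted p = 0.083) lost their calls. No member changed sign. In a setting chosen after the data were seen, the libraries were scaled to the summed counts of 9 cardiomyocyte markers, which put the median over all tested genes at 1.15, with 2.97% of them called lower and 84.9% higher. On that scale 2 of the 10 genes were lower, Tcap (log2 fold change -1.21, SE 0.12, edgeR adjusted p = 5.7e-07) and Flnc (-1.14, SE 0.30, edgeR adjusted p = 0.0034). Ldb3 and Csrp3 stood at 0.04 and 0.01 (edgeR adjusted p = 0.74 and 0.92), relative to the cardiomyocyte markers. Actn2 (0.55), Myoz2 (0.50) and Synpo2l (0.42) turned from lower to higher on that scale, and Des (2.11), Actn1 (3.21) and Myoz1 (1.18) were higher. The 9 markers themselves fell unequally under TMM, from a log2 fold change of -0.52 for Actc1 to -2.04 for Myl7. Myh6 made up 39.2% of their summed CPM in sham. On the marker scale Actc1 (0.62) and Tnnt2 (0.60) were higher, and Myl7 (-0.94) and Tnni3 (-0.63) were lower. A sign on that scale thus depends on which markers enter the sum. Tcap and Flnc were called lower under all 3 scalings. Both alternatives shift all genes upward, so the direction of Actn1 and Des, higher under TMM, could not turn under them.

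**Figure D3:**
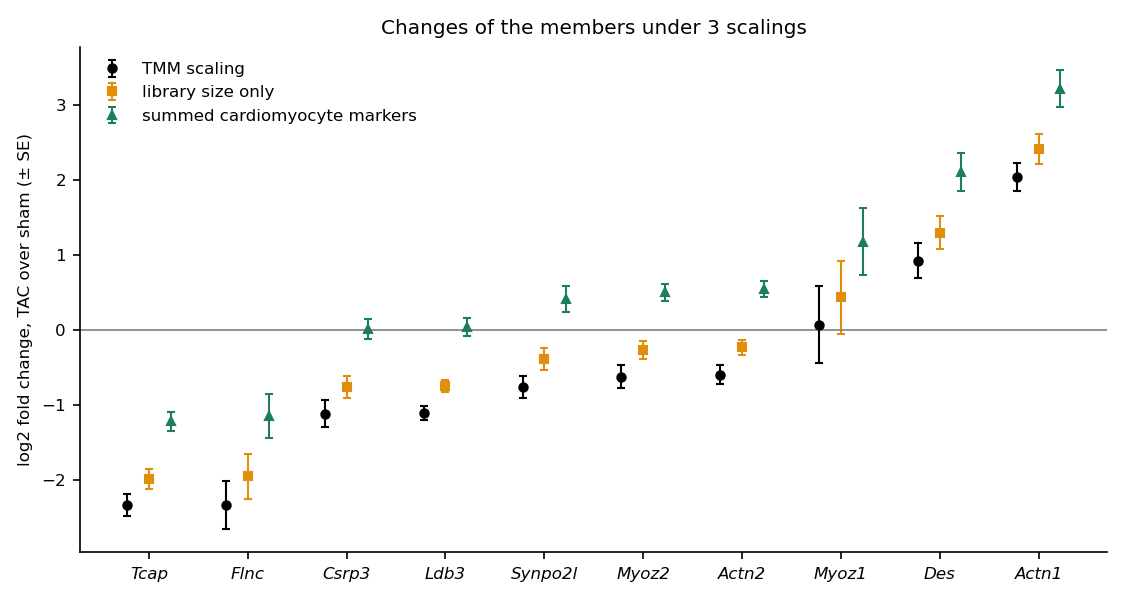
Log2 fold change (TAC over sham, ± SE of the edgeR fit on 5 libraries a group) of each Z-disc gene under TMM scaling, library size only, and scaling to the summed counts of 9 cardiomyocyte markers. Tcap and Flnc lie below 0 and Des and Actn1 above 0 in all 3. In the last, Synpo2l, Myoz2 and Actn2 change sign, and Ldb3 and Csrp3 stand just above 0, at 0.04 and 0.01.

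Markers of the cell types in the tissue moved between the groups as well. All 9 cardiomyocyte markers were lower in TAC, and their summed level was 35040.0 to 48890.0 CPM in TAC and 78720.0 to 95660.0 CPM in sham, so that the mean in TAC was 0.458 times that in sham. Fewer cardiomyocytes in the tissue and less RNA of these genes per cardiomyocyte cannot be told apart in bulk RNA. Of 9 fibroblast markers 6 were higher and 1 lower, and their sum was 5963 to 13790.0 CPM in TAC and 2188 to 2875 CPM in sham. Col3a1 made up 38.9% of the TAC sum. Col3a1, Col1a1, Col1a2 and Postn rose by 2.91, 2.85, 2.68 and 3.71 on the log2 scale, and Lum and Tcf21 by 1.09 and 1.15. Dcn was lower (log2 fold change -0.40), and Pdgfra (-0.23) and Dpt (0.20) were not called, so the sum does not stand for the number of fibroblasts. All 5 macrophage markers and all 4 markers of cycling cells were higher, with macrophage sums of 274 to 493 CPM in TAC and 151 to 235 CPM in sham and cycling sums of 108 to 386 CPM in TAC and 1.99 to 17.2 CPM in sham. Cells other than cardiomyocytes also express Actn1, and smooth muscle and pericytes also express Des. For smooth muscle, 3 of 7 markers were higher and 1 lower, with sums of 265 to 488 CPM in TAC and 250 to 318 CPM in sham. Cnn1, at 40.6 ± 20.2 CPM in TAC and 2.92 ± 2.23 CPM in sham, and Tagln, at 82.1 ± 33.8 CPM in TAC and 20.6 ± 6.14 CPM in sham, rose by 3.796 and 2.00 on the log2 scale. Mylk rose by 0.36, Smtn fell by 0.85, and Myh11, the smooth muscle myosin, stood at 22.8 ± 2.87 CPM in TAC and 24.3 ± 6.29 CPM in sham (edgeR adjusted p = 0.65). For pericytes, 3 of 5 markers were higher and 1 lower, with sums of 576 to 760 CPM in TAC and 383 to 444 CPM in sham. The part of these cells in the changes of Actn1 and Des was not tested. Of the other lists, endothelium had 2 of 5 markers higher and 1 lower, with sums of 640 to 882 CPM in TAC and 700 to 983 CPM in sham, and epicardium had 2 of 4 higher, with sums of 113 to 259 CPM in TAC and 72.8 to 266 CPM in sham. Of 9 skeletal muscle genes only Actn3 and Mylpf passed the filter, and neither was called, although Actn3 was called without sham replicate 1. Myod1 and Myf5 had 0 counts in all 10 libraries. Untested, Myh2 had 102 counts over the TAC libraries and 9 over the sham libraries. Myh1 had 76 over TAC and 5 over sham, Myh4 had 20 over TAC and 0 over sham, and Myog had 30 over TAC and 10 over sham. Myf6 went the other way, with 0 counts over TAC and 23 over sham. The sums of all 9 genes were 3.27 to 6.63 CPM in TAC and 1.06 to 5.52 CPM in sham.

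**Figure D4:**
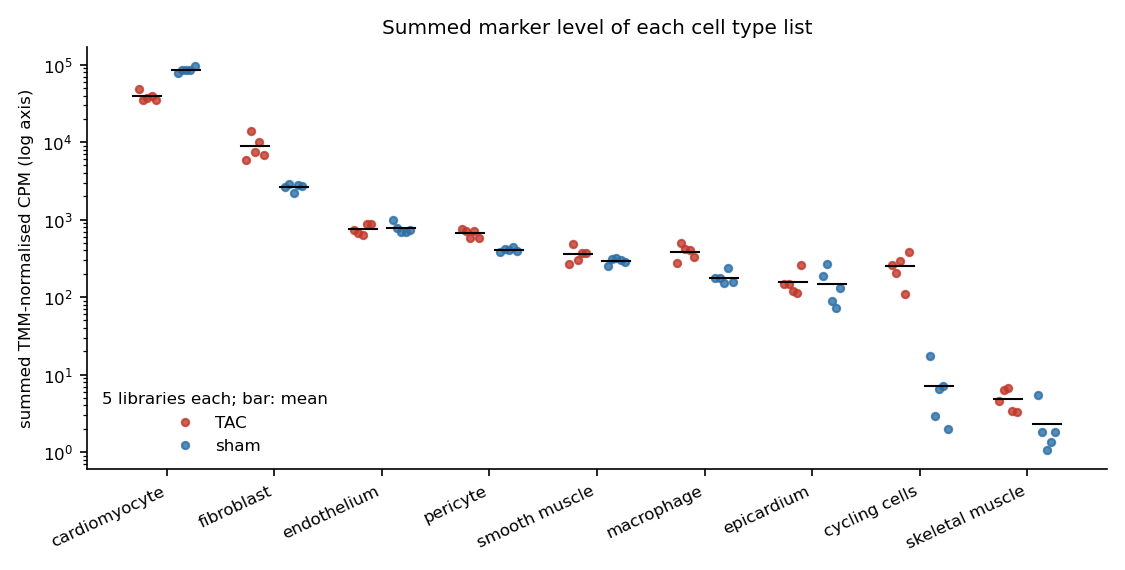
Summed TMM-normalised CPM (log axis) of 9 lists of cell type markers in each library, with TAC left of sham and a bar at the mean of 5 libraries. Cardiomyocyte sums are lower in every TAC library, and fibroblast, pericyte, macrophage and cycling cell sums are higher in every TAC library, than in any sham library.

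The order of the TAC libraries recurred over several of the 10 genes. TAC replicate 1 was the highest TAC library for Tcap, Actn2, Csrp3, Myoz1 and Myoz2 and the lowest for Actn1, Des and Synpo2l. It also had the highest cardiomyocyte sum of the TAC libraries (48890.0 CPM, against 35040.0 to 39660.0 CPM in the other 4) and the lowest fibroblast sum (5963 CPM). TAC replicate 2 was the highest for Des, Actn1 and Ldb3, with the highest fibroblast sum (13790.0 CPM) and the lowest cardiomyocyte sum. Of 48 tested Z-disc genes and relatives outside the 10, TAC replicate 1 was the highest TAC library for 15 and the lowest for 10. TAC replicate 2 was the highest for 15 and the lowest for 7. With 5 libraries a group and groups that stand apart, no correlation was computed. The part of tissue composition in the order of the TAC libraries was not tested.

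Outside the 10 genes, 49 other Z-disc genes and family members were listed, of which 48 were tested (Myoz3 was not). Of these, 26 were lower and 14 higher in TAC, which is 54.2% and 29.2% of those tested, beside 27.9% and 28.9% of all tested genes. The groups did not overlap for 56.2% of them, beside 41.7% of all tested genes. That was 11 higher and 16 lower in TAC, where the shares over all tested genes were 21.5% and 20.2%. The median log2 fold change of the 48 genes was -0.33. Under scaling by library size alone 17 were lower and 16 higher (35.4% and 33.3%, beside 12.7% and 51.0% of all tested genes), Synpo was among those that gained a call, and Pdlim4, Pdlim5, Palld, Fhl1, Capza2 and Smpx changed sign. With scaling to the cardiomyocyte markers 5 were lower (Cmya5, Xirp1, Myot, Mypn and Cryab) and 31 higher, which is 10.4% and 64.6% of those tested, beside 2.97% and 84.9% of all tested genes.

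**Figure D5:**
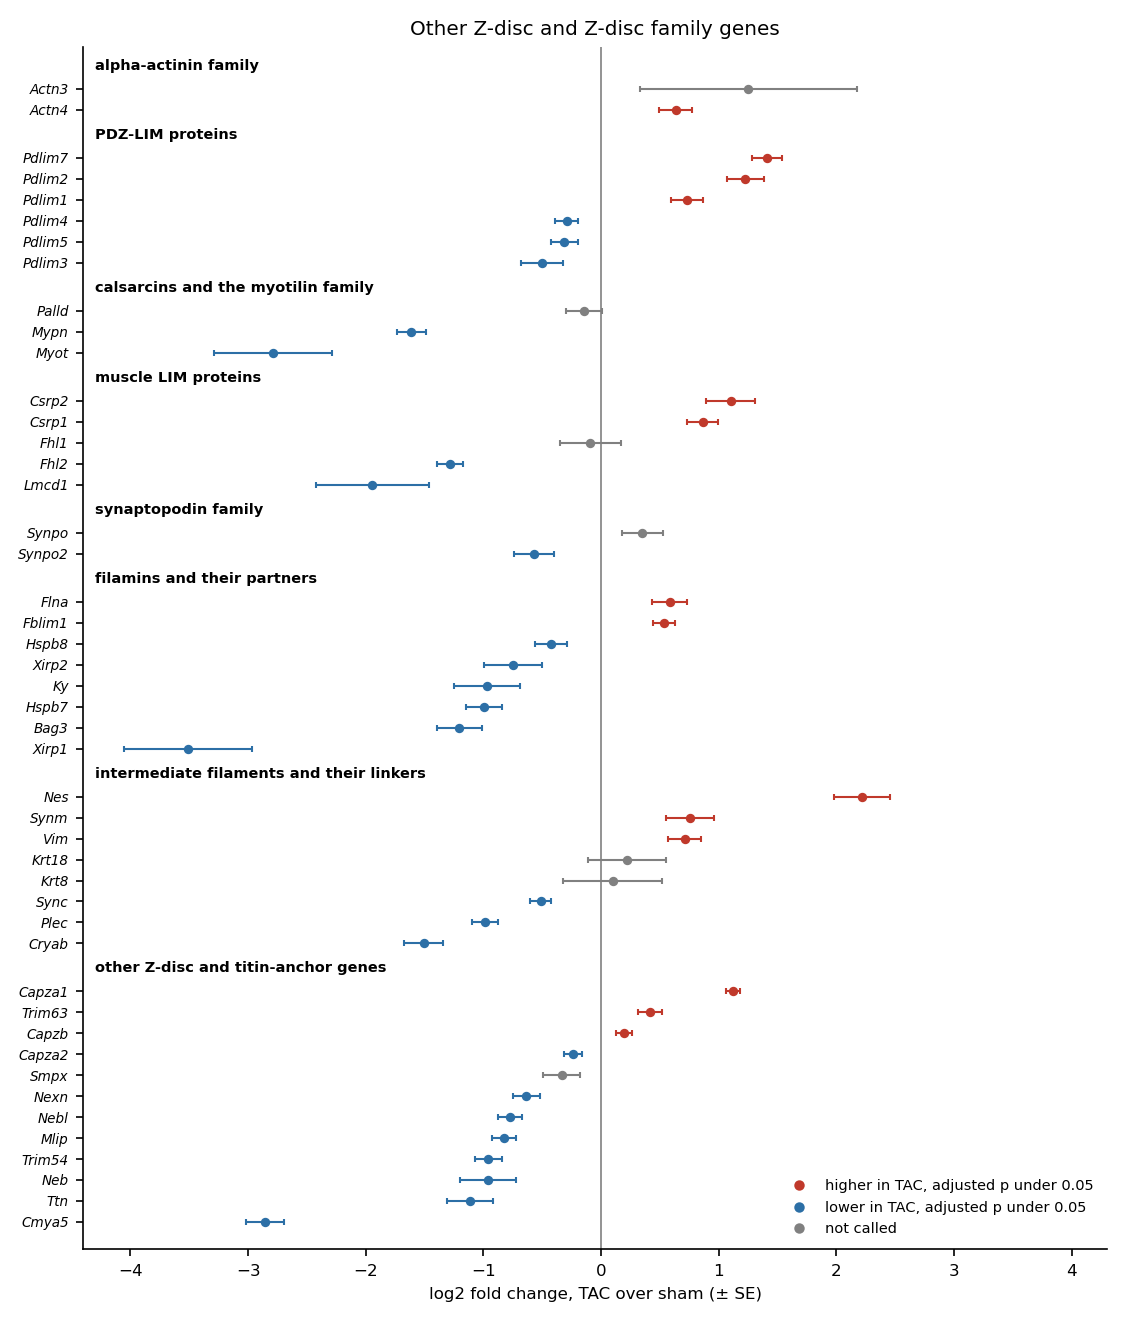
Log2 fold change (TAC over sham, ± SE of the edgeR fit) of the tested genes outside the 10 that are reported here, grouped by family and coloured by call at an adjusted p under 0.05. Xirp1, Cmya5, Myot and Lmcd1 lie farthest below 0, and Nes, Pdlim7 and Pdlim2 are among those farthest above it.

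Within the families of the 10 genes, relatives moved in different directions. Beside Actn1, the other non-muscle alpha-actinin gene Actn4 rose to 348 ± 59.4 CPM in TAC, against 224 ± 34.0 CPM in sham (log2 fold change 0.63, SE 0.14, edgeR adjusted p = 0.0021). Actn3, the fast-muscle form, was at 2.60 ± 1.66 CPM in TAC and 1.19 ± 1.80 CPM in sham and was not called (edgeR adjusted p = 0.27), but it was called without sham replicate 1 (log2 fold change 2.82, edgeR adjusted p = 0.010). Among the PDZ-LIM relatives of Ldb3, Pdlim7 rose to 131 ± 26.2 CPM in TAC, against 49.4 ± 4.78 CPM in sham, Pdlim2 to 29.9 ± 5.55 against 12.8 ± 2.55 CPM, and Pdlim1 to 46.3 ± 6.49 against 27.98 ± 4.95 CPM. Pdlim3, Pdlim4 and Pdlim5 fell by log2 values between -0.50 and -0.29, and each lost its call when certain single libraries were left out (edgeR adjusted p up to 0.082, 0.063 and 0.092). Under scaling by library size alone Pdlim4 and Pdlim5 had log2 fold changes of 0.06 and 0.04, the opposite sign. Among the LIM relatives of Csrp3, both Csrp1 (log2 fold change 0.86, SE 0.13) and Csrp2 (1.10, SE 0.21), which are widely expressed or smooth muscle forms, rose. Fhl2, a LIM protein of the heart, fell to 148 ± 16.9 CPM in TAC, against 360 ± 48.3 CPM in sham, and Lmcd1 fell by 1.94 on the log2 scale (SE 0.48). The groups overlapped for Lmcd1, with 33.8 to 68.0 CPM in TAC and 46.0 to 383 CPM in sham. Without sham replicate 5 its log2 fold change was -1.42. Fhl1 was not called (log2 fold change -0.09, edgeR adjusted p = 0.78).

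The myotilin family of Z-disc genes was listed together with the calsarcins. In that family Mypn, which encodes myopalladin, fell to 106 ± 7.57 CPM in TAC, against 323 ± 61.0 CPM in sham (log2 fold change -1.62, SE 0.12, edgeR adjusted p = 2.1e-06). Myot, which encodes myotilin, fell to 0.582 ± 0.253 CPM in TAC, against 4.06 ± 3.19 CPM in sham. Its log2 fold change was -2.79 and became -2.19 without sham replicate 5, while Palld was not called (-0.14, edgeR adjusted p = 0.45). Synpo2, the closest relative of Synpo2l, fell by 0.57 on the log2 scale (SE 0.17, edgeR adjusted p = 0.014), though not under scaling by library size alone (edgeR adjusted p = 0.31), and Synpo was not called (0.35, edgeR adjusted p = 0.11).

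Of the 9 filamin relatives and partners 6 fell and 2 rose. Xirp1, an actin-binding repeat protein that binds filamin C, had 277, 293, 295, 253 and 243 CPM in TAC replicates 1 to 5, against 1133, 3100.0, 715, 3597 and 6962 CPM in sham replicates 1 to 5. The TAC libraries were nearly level and the sham libraries spread over a wide range, with replicate 3 the lowest and replicate 5 the highest, as for Flnc. The log2 fold change of Xirp1 was -3.51 (SE 0.54, edgeR adjusted p = 0.00027) and -2.98 without sham replicate 5. Bag3, a co-chaperone for damaged filamin, had 156, 139, 162, 146 and 165 CPM in TAC replicates 1 to 5, against 257, 344, 258, 352 and 556 CPM in sham replicates 1 to 5. It fell by 1.20 on the log2 scale (SE 0.19, edgeR adjusted p = 0.00026). The small heat shock protein gene Hspb7 fell to 1581 ± 241 CPM in TAC, against 3150.0 ± 569 CPM in sham. Hspb8, Ky and Xirp2 fell as well, by 0.43, 0.97 and 0.75 on the log2 scale, but all 3 lost their call under scaling by library size alone (edgeR adjusted p = 0.63, 0.067 and 0.21). Xirp2 also lost it without sham replicate 5 or TAC replicate 3 (edgeR adjusted p up to 0.054). The non-muscle filamin gene Flna rose by 0.58 (SE 0.15) and Fblim1, whose product binds filamins at adhesions, rose by 0.54 (SE 0.09).

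Of the 8 intermediate filament genes and linkers tested beside Des, 3 rose and 3 fell. Nes, which encodes nestin, had 141, 334, 230, 236 and 185 CPM in TAC replicates 1 to 5, against 69.9, 43.6, 35.7, 49.3 and 44.2 CPM in sham replicates 1 to 5. As for Des, TAC replicate 2 was the highest and TAC replicate 1 the lowest, and the groups did not overlap. Its log2 fold change was 2.21 (SE 0.24, edgeR adjusted p = 2.1e-05). Vim (0.71, SE 0.14) and Synm (0.75, SE 0.20), which encode vimentin and synemin, rose together with it. Cryab, the small heat shock protein that protects desmin from aggregation, fell to 756 ± 109 CPM in TAC, against 2151 ± 507 CPM in sham (log2 fold change -1.51, SE 0.17, edgeR adjusted p = 2.0e-05). Plec, which encodes the linker plectin, fell by 0.99 on the log2 scale (SE 0.11), and Sync fell by 0.51 (SE 0.09), although Sync lost its call under scaling by library size alone (edgeR adjusted p = 0.17). Krt8 and Krt18 were not called (log2 fold changes 0.10 and 0.22, edgeR adjusted p = 0.86 and 0.60).

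Of the 13 other Z-disc and titin-anchor genes 9 fell and 3 rose. Cmya5, which encodes the desmin-binding protein myospryn, fell to 207 ± 36.2 CPM in TAC, against 1500.0 ± 257 CPM in sham (log2 fold change -2.85, SE 0.16, edgeR adjusted p = 5.1e-07). Ttn, which encodes the giant spring protein titin, fell by 1.11 on the log2 scale (SE 0.19). Nebl, Nexn, Mlip, Trim54 and Neb fell by log2 values between -0.96 and -0.63. For the capping protein of the thin filament end at the Z-disc, Capza1 rose by 1.12 on the log2 scale (SE 0.06, edgeR adjusted p = 4.4e-07). Capza2 stood at a log2 fold change of -0.24, which turned to 0.12 under scaling by library size alone, and Capzb at 0.19. Both calls were lost when certain single libraries were left out (edgeR adjusted p up to 0.061 and 0.068). Trim63, a muscle ubiquitin ligase, rose by 0.42 (SE 0.10). Smpx was not called (edgeR adjusted p = 0.088), but it was called without TAC replicate 1 (log2 fold change -0.50, edgeR adjusted p = 0.00076).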

How the data were processed

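Left atrial RNA was sequenced in 5 TAC and 5 sham libraries, grouped by their titles. The deposited values are raw counts per gene symbol, which the authors made without normalization. STAR, bcl2fastq and the build mm10 are named, without versions, in the submitters' processing notes, and the sources used here give neither the counter nor its strand setting nor its annotation. The 5 closing tallies that name no gene (25.9% to 29.2% of reads) stayed out of library sizes and tests. If strand was not used, reads from overlapping antisense genes cannot be told apart.

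The main test was edgeR 4.0.16 (R 4.3.3) with TMM factors, default filterByExpr, robust quasi-likelihood estimation, group as the only term and Benjamini-Hochberg adjustment over all 15175 tested genes. The standard error was the log2 fold change divided by the square root of F. The edgeR script was first tested on simulated counts with known fold changes. Ratios within libraries were compared with exact permutation tests over all regroupings of 5 against 5. Positions, overlaps and exonic lengths came from GENCODE M21 on GRCm38, the assembly of mm10, which matched 95.7% of symbols. Promoters came from RefSeq. Alternatives were other scalings, filters, DESeq2 1.42.0, limma 3.58.1 voom, a replicate block and leaving out each library. The 10 genes, the lists and the tests were chosen with earlier results of these data known. All 10 genes, every listed relative (levels for up to 4 called genes a list with the smallest adjusted p) and the nearest tested neighbours were named by rule. Levels of Actn3 were added for a call that 1 library decides. Some listed genes count in the totals but are not reported here. No library was left out, and no 2 libraries held identical counts.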

Additional observations from a re-analysis of the deposited data

Results flagged for a closer look

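Within a group of 5 libraries, a library was singled out when its gap to the nearest other library exceeded 0.71 of the whole range. Of 26 such checks (10 genes and 3 ratios in 2 groups), 2 passed, and chance alone passes about 1 in 20. Both concerned TAC replicate 1, which was the highest TAC library for Myoz2 (857 CPM) and for Myoz1 (1.34 CPM, from 58 counts). Reads that the authors' counting left ambiguous between genes, which entered no test, took 5.79% of all reads in TAC, against 4.31% in sham, with ranges of 5.34% to 6.09% and 3.85% to 4.48% that did not overlap.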

How the results depend on the processing

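Over 388 pairs of a result and an alternative, 363 kept their direction and their side of the threshold, or for a count stayed within 1.5 times. With library size as the only scaling, Actn2 (-0.23) and Myoz2 (-0.26) lost their calls, 17 of the wider Z-disc genes were lower, and of all tested genes 7739 were higher and 1931 lower (80.0% higher, against 50.9%). Scaling to the summed cardiomyocyte markers, chosen after the data were seen, gave Ldb3 0.041, Actn2 0.55, Csrp3 0.014, Myoz2 0.50 and Synpo2l 0.42, the opposite sign, and called Myoz1 (1.18). It left 6 of the 10 genes higher and 2 lower, 31 and 5 of the wider Z-disc genes, and 12877 and 450 of all tested genes. Myoz1 turned sign with limma voom (-0.043) and without the 2 shallowest sham libraries (-0.23), and leaving out single libraries gave -0.38 to 0.51. The Myoz1 to Myoz2 difference ranged from 0.58 to 1.16 over single libraries left out. The other members kept their calls under every filter, test and library left out.

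Same-numbered libraries showed no clear shared deviation (correlations of their deviations from -0.04 to 0.08). These correlations cannot show what the replicate number stands for, and the labels do not say what lies behind it. With it as a block, all members kept their calls, the wider genes were 13 higher and 22 lower, and all tested genes 4103 and 3917. The block turned the ratio tests of Actn1 to Actn2 (2.62) and Des to Flnc (3.05) into sign-flip tests over 5 differences with an exact permutation p of 0.0625 each, the smallest those allow, and left Myoz1 to Myoz2 at 0.87.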

Other observations

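The genes nearest to the members on the genome were read as well. Tcap lies between Stard3 and Pnmt, 2698 and 1496 bases away on the same strand. Stard3, a cholesterol-binding protein gene, fell to 24.2 CPM in TAC, against 43.0 CPM in sham (log2 fold change -0.83, SE 0.08), and Pnmt, the enzyme gene for the last step of adrenaline synthesis, fell to 0.366 CPM in TAC, against 5.03 CPM in sham (-3.76, SE 0.31, edgeR adjusted p = 3.1e-06). Opn4, 1935 bases from Ldb3, fell to 4.85 CPM in TAC, against 27.5 CPM in sham (-2.50, SE 0.18). Speg, a muscle kinase gene 6717 bases from Des, fell by 1.08 on the log2 scale (SE 0.12) where Des rose. Neither neighbour of Flnc was called, with log2 fold changes of 0.26 for Ccdc136 and 0.01 for Atp6v1f (edgeR adjusted p = 0.16 and 0.94). E2f8, a cell-cycle factor gene next to Csrp3, rose by 1.94 (SE 0.32). Of the other neighbours, 2310015A10Rik by Actn1 (-0.70), Bmpr1a by Ldb3 (-0.39), Mtr by Actn2 (-0.96), Usp53 and Synpo2 by Myoz2 (-0.60 and -0.57) and Sec24c by Synpo2l (-0.34) were called lower and Zdhhc13 by Csrp3 (0.47) higher. Dcaf5 by Actn1 (0.26), Heatr1 by Actn2 (0.12), 2810402E24Rik by Myoz1 (-0.44) and Dnpep by Des (0.07) were not called. These neighbours were taken by position, as the nearest tested gene on each side, and the share of neighbours that move with a member was not tested.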
